A study of Mus musculus with 4 samples.

Results

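The genes described here encode feedback regulators of NF-kB signalling and regulators of mRNA decay: Zc3h12a, Zfp36, Nfkbiz, Nfkbia, Bcl3, Tnfaip3, Tnip1, Ier3, Nfkb2 and Relb. They were chosen by symbol, taking every probe set that the platform annotation assigns to 1 of these symbols alone, and made up 10 of 18193 genes and 19 of 45101 probe sets on the array. All 10 were measured, that is, above the floor (a signal of 89.8, the median of all signals) on at least 1 array, as were 12258 genes in all. The series holds 4 Affymetrix expression arrays of RNA from mouse primary intestinal epithelial cells grown from crypts on fibronectin in medium with 2.5% serum and insulin. The 4 groups, of 1 array each, were untreated cells, cells given IL-17A (50 ng/ml) for 6 h, cells given FGF2 (5 ng/ml) for 6 h, and cells given IL-17A plus FGF2 for 6 h. All 4 therefore share the crypt culture, the serum and the insulin. How long the untreated cells were kept, mouse strain, age and the number of animals behind each array were not given in the sources used here.

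NF-kB is a family of dimeric transcription factors that IkB proteins hold in the cytoplasm until the IkB kinase marks them for destruction. The dimers then switch on inflammatory genes together with their own inhibitors: Nfkbia encodes IkB-alpha, Tnfaip3 the ubiquitin-editing enzyme A20, and Tnip1 an A20-binding partner. IL-17A, a T cell cytokine, is a weak NF-kB activator that acts in good part by prolonging the life of cytokine mRNAs. Nfkbiz (IkB-zeta, a nuclear IkB protein needed for a set of IL-17A target genes) and Zc3h12a (Regnase-1, a ribonuclease that cuts cytokine mRNAs and restrains IL-17A signalling) are known opposing parts of that response. FGF2 signals through receptor tyrosine kinases and ERK.

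NF-kB sites lie in the promoters of several of these genes, so the 250 bases before the RefSeq start (GRCm38.p6) are shown for 5 of them, with matches to the NF-kB consensus in capitals. They are Zc3h12a, Tnfaip3 and Ier3, which by their brightest probe sets differed most among the genes with a window. The others are Nfkbia, the textbook NF-kB target, and Tnip1, whose signal was alike on all arrays. Each reads 5′ to 3′ on the gene's own strand.
Nfkbia, chr12:55492648-55492897, minus strand: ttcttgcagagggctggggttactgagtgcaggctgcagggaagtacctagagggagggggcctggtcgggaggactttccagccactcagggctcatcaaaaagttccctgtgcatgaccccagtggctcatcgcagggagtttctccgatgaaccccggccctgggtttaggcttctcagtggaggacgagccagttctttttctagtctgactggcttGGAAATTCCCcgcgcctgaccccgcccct
Tnfaip3, chr10:19015411-19015660, minus strand: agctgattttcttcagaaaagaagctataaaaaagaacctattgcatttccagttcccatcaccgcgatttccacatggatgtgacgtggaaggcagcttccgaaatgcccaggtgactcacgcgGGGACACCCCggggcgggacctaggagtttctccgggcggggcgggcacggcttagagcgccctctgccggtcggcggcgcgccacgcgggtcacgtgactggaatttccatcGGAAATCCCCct
Ier3, chr17:35821463-35821712, plus strand: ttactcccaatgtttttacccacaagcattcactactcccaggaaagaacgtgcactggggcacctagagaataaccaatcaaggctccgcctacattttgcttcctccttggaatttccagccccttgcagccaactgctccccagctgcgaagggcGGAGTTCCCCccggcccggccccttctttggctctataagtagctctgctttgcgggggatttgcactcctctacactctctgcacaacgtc
Tnip1, chr11:54962941-54963190, minus strand: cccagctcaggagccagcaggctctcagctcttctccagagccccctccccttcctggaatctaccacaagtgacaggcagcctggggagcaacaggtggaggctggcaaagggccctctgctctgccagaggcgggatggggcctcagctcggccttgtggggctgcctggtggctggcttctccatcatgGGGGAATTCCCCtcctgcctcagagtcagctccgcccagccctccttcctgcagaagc
Zc3h12a, chr4:125127882-125128131, minus strand: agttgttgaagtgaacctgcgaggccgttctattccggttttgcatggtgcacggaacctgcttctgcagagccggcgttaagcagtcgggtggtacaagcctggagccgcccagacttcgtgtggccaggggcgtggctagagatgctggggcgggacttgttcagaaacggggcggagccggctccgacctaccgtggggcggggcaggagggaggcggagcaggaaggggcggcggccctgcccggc
Windows were held for 8 of the 10 genes (11 windows, 3 of them of Nfkb2 and 2 of Tnfaip3), and 5 genes had a consensus match on either strand: Nfkbia, Tnfaip3, Ier3, Tnip1 and Nfkb2. Over all genes with a window, 8.23% of 27025 had one, and 7.25% of 32851 windows. In the Nfkbia window the match lay on the other strand, 29 to 20 bases before the start, in the Ier3 window 92 to 83 bases before it. Tnfaip3 had matches 125 to 116 and 12 to 3 bases before the start, and Tnip1 overlapping ones from 58 to 47. Genes with a match included Tnfaip3 and Ier3, whose signals differed between arrays, and Tnip1, whose highest and lowest arrays were 1.05-fold apart. Nfkb2 had a match too. Its highest and lowest arrays were 1.22-fold apart in its brighter probe set and 1.85-fold in the dimmer one. Zc3h12a, which differed most, had no match in its window. Bcl3 and Zfp36 had none either. A match describes these letters only.

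With 1 array per group no test across samples could be made, and no p-value, standard error or replicate SD is given. The layout offers a yardstick of error instead. IL-17A can be read without FGF2 (IL-17A against untreated) and with it (both factors against FGF2), and these readings use different arrays. The same holds for FGF2. The difference between the readings, here called the joint term (log2 both − IL-17A − FGF2 + untreated), was taken over all measured genes as if it were error. Scaled to a single log2 ratio, its SD came to 0.29 in the dimmest genes (mean log2 below 8), 0.21 between 8 and 10, 0.13 between 10 and 12, and 0.09 in those brighter still. The matching 99th percentiles of its absolute value were 0.83, 0.62, 0.39 and 0.30. True joint effects are part of it, so it is no test. Signals under the floor were raised to it beforehand, which can make the yardstick too small in the dimmest genes. Signals of different probe sets are not compared in level.

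Among the mRNA decay genes, Zc3h12a (chr4:125118414-125127881, RefSeq gene span on GRCm38.p6, as for the positions that follow) had, in its brighter probe set, the largest IL-17A difference of the 10 genes. This probe set, 1427348_at, gave signals of 204 on the untreated array, 1013 with IL-17A, 192 with FGF2 and 1595 with both. Both arrays with IL-17A were thus high and both without it low. The IL-17A difference was 4.96-fold without FGF2 (rank 7 of 12258 measured genes from the highest) and 8.32-fold with FGF2 (rank 5). FGF2 alone went with a 1.06-fold lower signal, less than the yardstick SD, whereas FGF2 added to IL-17A went with a 1.58-fold higher one. That last log2 ratio of 0.66 lay just over the 99th percentile of 0.62 for its signal range. The joint term was 0.74 on the log2 scale, above that of 98.4% of measured genes but inside the 99th percentile of 0.88 for the range. No other of the 10 genes stood at least 1.5-fold above every other array on the combined array, which 0.326% of measured genes did.

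The size of the Zc3h12a difference depended on how dim signals were treated. The other probe set, 1443993_at, had signals of 65.0, 87.4, 47.6 and 95.2 (untreated, IL-17A, FGF2, both), over the floor on the combined array only. With the mean of both probe sets the log2 ratio for IL-17A was 1.37 without FGF2 and 2.03 with it, against 2.31 and 3.06. With the floor raised to the 75th percentile of signals, these were lower bounds of 1.12 and 1.78. The log2 ratio for FGF2 added to IL-17A was 0.39 with the mean of both probe sets, under 1.5-fold, and 0.61 with the floor added to every signal. It was 0.77 with arrays centred on their medians and 0.63 with quantile normalization. These values lay on both sides of 0.62, a 99th percentile that was computed for the main setting only.

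Zfp36 (chr7:28376784-28379228) encodes tristetraprolin, which binds AU-rich elements of cytokine mRNAs and recruits the deadenylation machinery. Its signals were 2725 untreated, 2335 with IL-17A, 2529 with FGF2 and 2308 with both. The IL-17A arrays were lower than their partners by 1.17-fold and 1.10-fold, both within the 99th percentile of 0.39 on the log2 scale. Zc3h12a and Zfp36 thus lay on opposite sides of 0 for IL-17A in both pairs.

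**Figure D1:**
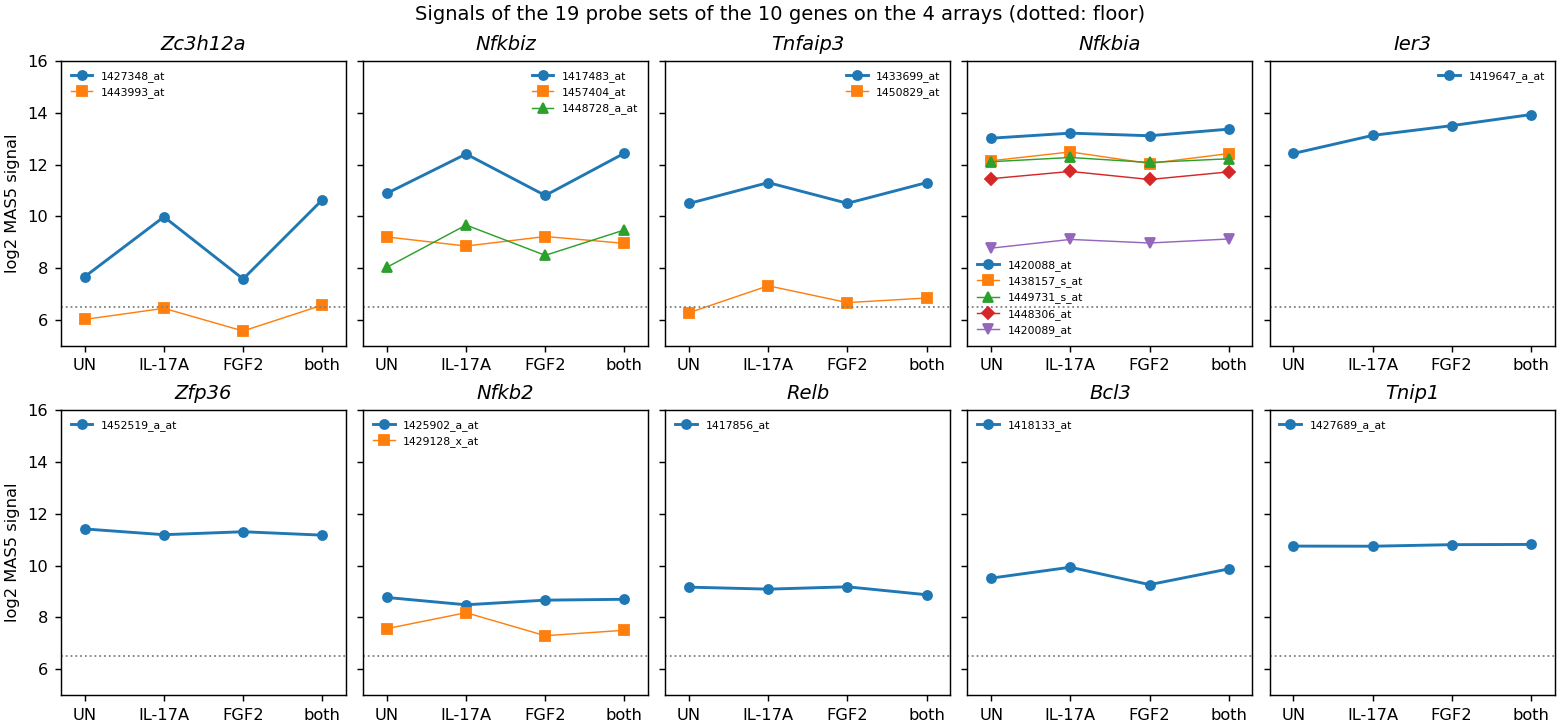
Log2 MAS5 signal (y axis) of every probe set of the 10 genes on the untreated (UN), IL-17A, FGF2 and combined arrays (x axis), 1 point per array and no error bars since each group is 1 array. The thick line is the probe set with the highest mean signal and the dotted line the floor. Zc3h12a and the upper Nfkbiz line are high on both IL-17A arrays, Ier3 is higher on each treated array than on the untreated one, and Tnip1 is level.

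Of the IkB genes, Nfkbiz (chr16:55811375-55838954) was highest on the IL-17A arrays in 2 of its 3 probe sets. Probe set 1417483_at gave signals of 1901 untreated, 5447 with IL-17A, 1794 with FGF2 and 5565 with both. The IL-17A arrays formed a high pair and the others a low pair, 2.87-fold apart without FGF2 and 3.10-fold with it. Within each pair the arrays differed by a log2 ratio of at most 0.08, less than the yardstick SD of 0.13. Probe set 1448728_a_at gave 262, 813, 361 and 713 in the same order, a difference of 3.10-fold without FGF2 and 1.97-fold with it. Here the readings stood 0.65 apart on the log2 scale, inside the 99th percentile of 0.88 for joint terms at this signal, and the FGF2 array was 1.38-fold above untreated.

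The third Nfkbiz probe set, 1457404_at, went the other way, with 591 untreated, 463 with IL-17A, 598 with FGF2 and 498 with both. It was 1.28-fold and 1.20-fold lower with IL-17A in the pairs, inside the 99th percentile of 0.62. All 3 probe sets were over the floor on every array. The transcripts they detect were not given in the sources used here. With the mean of the 3, the log2 ratios of Nfkbiz were 0.93 and 0.78, and it no longer passed 2-fold.

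Nfkbia (chr12:55489409-55492647) had 5 probe sets, all over the floor on all arrays. The brightest, 1420088_at, gave 8313 untreated, 9519 with IL-17A, 8878 with FGF2 and 10593 with both. All 5 were higher with IL-17A in both pairs, by log2 ratios of 0.16 to 0.34 without FGF2 and 0.14 to 0.38 with it. The differences were small. Only 1438157_s_at, with 4545, 5756, 4220 and 5510, passed the 99th percentile of its range in these pairs (1.27-fold and 1.31-fold higher). The dimmest, 1420089_at, gave 438, 553, 503 and 560, with both IL-17A arrays again on top. For FGF2 against untreated, 2 probe sets were above 0 and 3 below. The 5 probe sets share the RNA of each array and are not replicates of a condition.

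Bcl3 (chr7:19808462-19822824), a nuclear IkB protein that modulates NF-kB dimers on DNA, gave 730 untreated, 978 with IL-17A, 613 with FGF2 and 934 with both. Both IL-17A arrays were above both others. The difference was 1.34-fold without FGF2 and 1.52-fold with it, and the larger log2 ratio of 0.61 stayed just inside the 99th percentile of 0.62.

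Of the ubiquitin regulators, Tnfaip3 (chr10:19000910-19015410) differed with IL-17A by nearly the same amount in both pairs in its brighter probe set. That probe set, 1433699_at, gave 1449 untreated, 2532 with IL-17A, 1454 with FGF2 and 2529 with both. IL-17A went with 1.75-fold and 1.74-fold higher signals, log2 ratios of 0.80 and 0.80 against a 99th percentile of 0.39, while the log2 ratios for FGF2 were 0.0051 and −0.0015. Its ranks among measured genes were 75 and 80. The dim probe set 1450829_at gave 77.8, 160, 102 and 115. It was at least 1.78-fold higher with IL-17A without FGF2, but 1.13-fold with FGF2, and the larger log2 ratio of 0.83 lay at the 99th percentile for such dim signals.

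Tnip1 (chr11:54910787-54962956), the A20 partner, gave 1722 untreated, 1716 with IL-17A, 1789 with FGF2 and 1800 with both. The highest array was 1.05-fold above the lowest, and no pair of neighbouring levels differed by more than the yardstick SD. Tnfaip3 and Tnip1 thus had different readings on the same arrays.

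**Figure D2:**
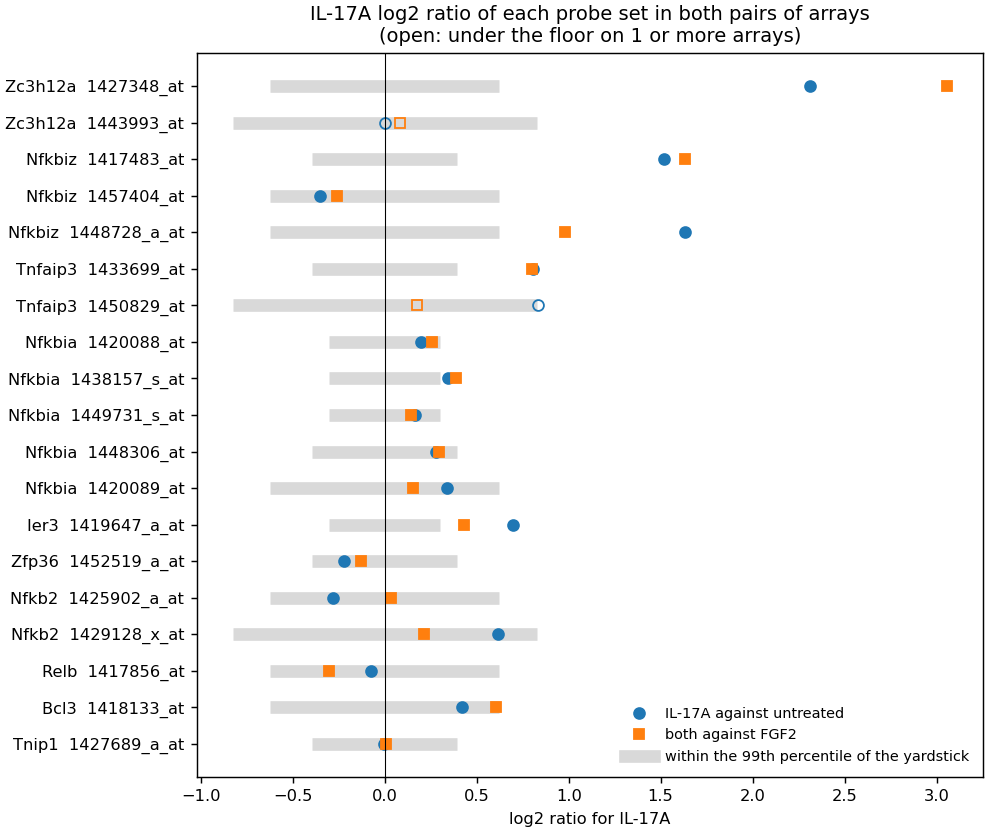
Log2 ratio for IL-17A (x axis) of each of the 19 probe sets (y axis), without FGF2 (circles) and with FGF2 (squares). Grey bars span the 99th percentile of the yardstick for the probe set's signal range, and open symbols are probe sets under the floor on 1 or more arrays. The bright Zc3h12a and Tnfaip3 probe sets, 2 of 3 Nfkbiz probe sets, Ier3 and Nfkbia 1438157_s_at lie outside the bars in both pairs.

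Ier3 (chr17:35821713-35822911) is an immediate early gene that both NF-kB and ERK signalling are known to induce, and its product modulates cell survival. Its signals were 5521 untreated, 8953 with IL-17A, 11628 with FGF2 and 15645 with both. Each step in that order was larger than the 99th percentile of 0.30, with log2 gaps of 0.70, 0.38 and 0.43. IL-17A went with a 1.62-fold higher signal without FGF2 and 1.35-fold with it. FGF2 went with a 2.11-fold higher signal without IL-17A and 1.75-fold with it, and both together with 2.83-fold. The joint term was −0.27, inside the 99th percentile of 0.43 for joint terms at this signal, so the combined array stood below the product of the single differences by no more than the yardstick allows.

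Beside this FGF2 difference, the labelled cell type was checked against marker genes. All 8 epithelial markers were measured, with summed signals of 132645, 136831, 139104 and 140679 (untreated, IL-17A, FGF2, both). Markers of other cells were present too. The 7 fibroblast markers (7 of 7 measured) summed to 53325, 56722, 41311 and 43755, those of smooth muscle (5 of 5) to 33463, 34289, 24585 and 22900, and those of endothelium (5 of 5) to 4751, 4491, 6812 and 7261. For macrophages and other leukocytes 5 of 8 were measured, with sums of 2278, 2818, 3971 and 4434, but Cd14 alone (862, 1318, 2640 and 3081) carried the difference between arrays with and without FGF2. The other 4 summed to 1416, 1499, 1331 and 1353. Ptprc, the pan-leukocyte marker, was at 151, 122, 105 and 95.0, and Itgam, Cd3e and Cd79a were under the floor on every array. Of 6 neutrophil markers matched, S100a8 alone was over it (419, 717, 1348 and 3740), while S100a9, Mpo, Elane, Csf3r and Cxcr2 were under it on every array. In both FGF2 pairs 5 of 5 endothelial and 5 of 8 epithelial markers were higher with FGF2, as Ier3 was. The endothelial marker Tek was so by only 1.03-fold and 1.11-fold. Lower in both pairs were 5 of 5 smooth muscle, 5 of 7 fibroblast and 2 of 8 epithelial markers, while the fibroblast marker Dcn was higher (10811, 13120, 12918 and 15772). The share of all measured genes higher or lower in both FGF2 pairs is not given here. S100a8, like Zc3h12a, was highest on the combined array. The part of these markers in the results for Ier3 and Zc3h12a was not tested. Enteric glia and neuron markers (3 of 3 matched) summed to 1174, 1158, 1081 and 1319. In bulk RNA, fewer cells of a type and less RNA per cell cannot be told apart.

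Of the NF-kB subunits, Nfkb2 (chr19:46300994-46312400), which encodes the p100 precursor of the non-canonical pathway, had probe sets that disagreed. Probe set 1425902_a_at gave 435 untreated, 358 with IL-17A, 405 with FGF2 and 414 with both, whereas the dimmer 1429128_x_at gave 189, 289, 156 and 181. For IL-17A without FGF2 the first was 1.22-fold lower and the second 1.53-fold higher, each inside the 99th percentile of its range (0.62 and 0.83). Relb (chr7:19606217-19629438), the partner of the processed Nfkb2 product, gave 573, 544, 579 and 468. It was 1.05-fold and 1.24-fold lower with IL-17A, also inside 0.62. In both genes every step between neighbouring levels was inside the 99th percentile.

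Counted over the 10 genes, IL-17A without FGF2 went with at least 2-fold higher signals in 2 (Zc3h12a and Nfkbiz), against 0.375% of measured genes, and at least 1.5-fold in 4 (also Tnfaip3 and Ier3), against 1.44%. With FGF2 present the same cuts gave 2 genes (0.367% of measured genes) and 4 genes (1.83%), with Bcl3 in place of Ier3. Zc3h12a and Nfkbiz passed 2-fold in both pairs, as did 0.204% of measured genes, and with Tnfaip3 3 genes passed 1.5-fold in both (0.579%). The 99th percentile of the yardstick was passed by 4 genes in each pair (Zc3h12a, Nfkbiz, Tnfaip3 and Ier3), against 1.23% and 1.46% of measured genes. In neither pair was any of the 10 at least 1.5-fold lower (0 of 10), against 1.95% and 2.06%. In both pairs 6 genes lay above 0 (25.8% of measured genes) and 2, Zfp36 and Relb, below it (28.4%). The median log2 ratio of the 10 was 0.31 and 0.34 in these pairs, against −0.01 and 0 over all measured genes. Since the genes were chosen with results of these data known, these counts describe the set and call nothing particular to it.

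**Figure D3:**
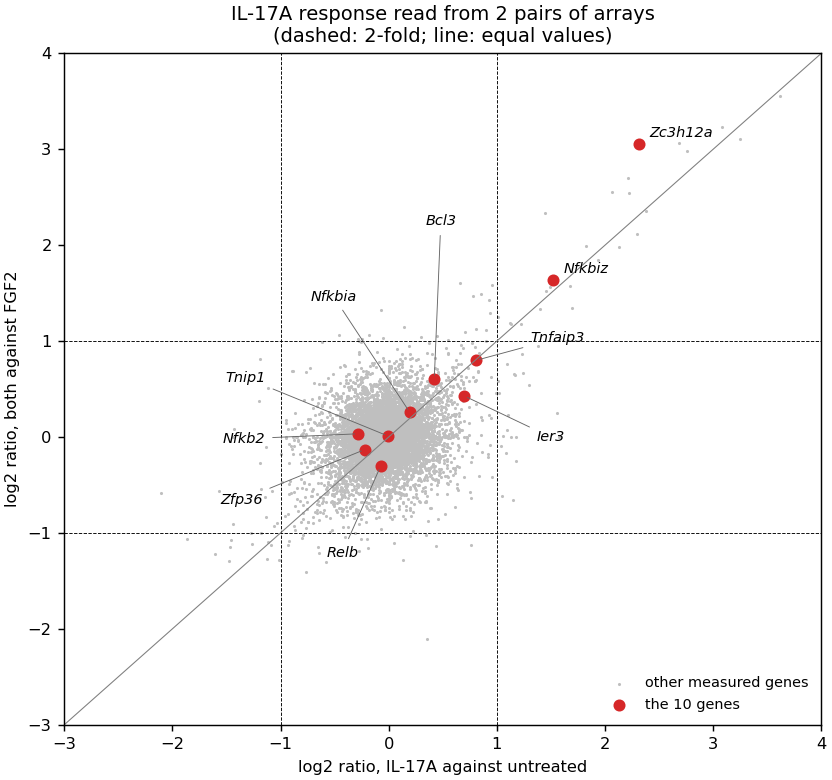
Log2 ratio for IL-17A without FGF2 (x axis) and with FGF2 (y axis), in separate pairs of arrays, for 12258 measured genes (grey) and the 10 genes (red). Dashed lines mark 2-fold and the solid line equal values. Zc3h12a and Nfkbiz lie past 2-fold on both axes, and Tnfaip3 at 0.80 on both.

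FGF2 gave another picture. Without IL-17A 1 of the 10 genes, Ier3, was at least 2-fold higher (0.473% of measured genes) and 0 were 2-fold lower (0.963%). With IL-17A present 0 were at least 2-fold higher (0.547%), and Zc3h12a and Ier3 were at least 1.5-fold higher (2 of 10, against 2.8%), Zc3h12a in its brighter probe set only. Ier3 was the only 1 of the 10 at least 1.5-fold higher in both pairs, as were 1.09% of measured genes. The median log2 ratio of the 10 was −0.04 without IL-17A and 0.05 with it. Tnfaip3, Nfkbiz (1417483_at), Zfp36 and Tnip1 had FGF2 log2 ratios within the yardstick SD of 0.13 in both pairs.

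**Figure D4:**
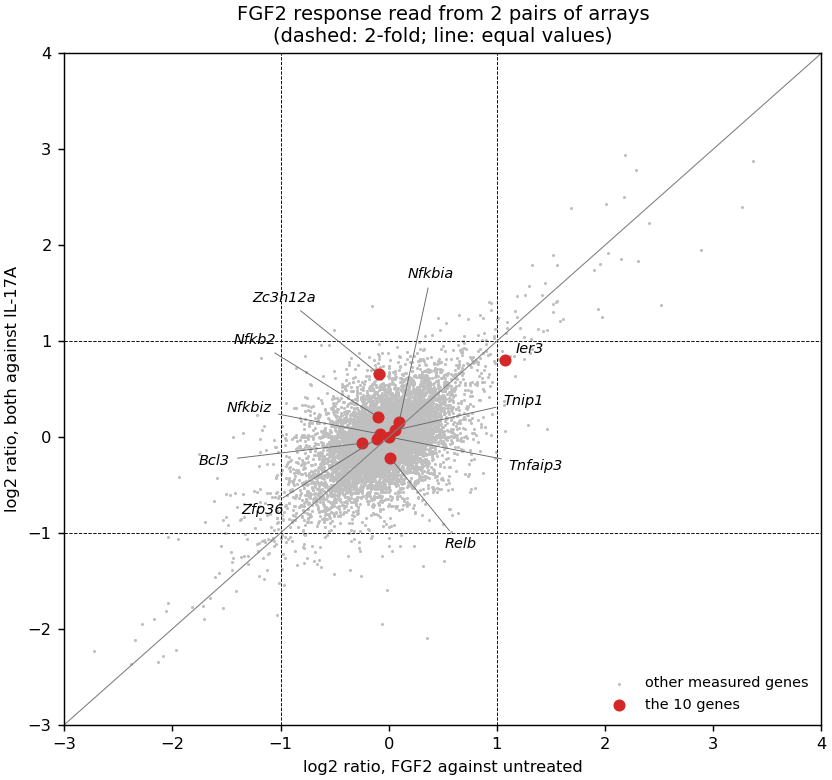
Log2 ratio for FGF2 without IL-17A (x axis) and with IL-17A (y axis) for 12258 measured genes (grey) and the 10 genes (red), drawn as in the plot for IL-17A. Ier3 stands apart at 1.07 and 0.81, and Zc3h12a lies near 0 on the x axis but at 0.66 on the y axis.

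With both factors against untreated, 3 genes were at least 2-fold higher (0.906% of measured genes): Zc3h12a at 7.82-fold, Nfkbiz at 2.93-fold and Ier3 at 2.83-fold. Tnfaip3 was at 1.75-fold, Bcl3 at 1.28-fold and Nfkbia at 1.27-fold. Tnip1 was 1.05-fold higher, while Zfp36, Nfkb2 and Relb were 1.18-fold, 1.05-fold and 1.23-fold lower. This comparison shares arrays with the others and adds no separate reading. A joint term of at least 1.5-fold in either direction was found, among the brightest probe sets, in Zc3h12a only (1 of 10, against 6.21% of measured genes). The dimmer probe sets Nfkbiz 1448728_a_at and Tnfaip3 1450829_at had joint terms of that size too, both −0.65.

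The rest of the pathway was described through 8 lists of 82 genes, of which 74 matched a gene and 72 were measured. Without the 10 genes above, 62 remained, with a median log2 ratio for IL-17A of 0.04 without FGF2 and 0.05 with it. Of the 62, 8 were at least 2-fold higher without FGF2, against 0.375% of measured genes. All 8 were in the list of secreted and surface products. That list had 11 of 12 genes measured and a median of 1.22 without FGF2 and 1.58 with it. Its genes Cxcl1, Cxcl2, Cxcl5, Il6, Csf3, Tnf and Lcn2 passed 2-fold in both pairs. On the untreated array Tnf was under the floor (42.7), so its 2.33-fold without FGF2 is a lower bound, and Csf3 was close to it (98.1). Ccl20 passed 2-fold only without FGF2, at least 2.19-fold higher with its other arrays under the floor. Ccl2 passed only with FGF2 (2.99-fold, and 1.93-fold without), and the adhesion genes Icam1 and Vcam1 in neither.

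Upstream signal transducers were counted for IL-17A in both pairs. Over all measured genes, 1.44% and 1.83% were at least 1.5-fold higher in these pairs, and 1.95% and 2.06% lower. Counts of 0 in lists this short lie near those shares. Of 9 measured genes among the IkB kinase and its upstream kinases, 0 differed 1.5-fold with IL-17A in either pair, and medians were −0.08 and 0.05. In the list of IL-17 receptor adaptors and TRAFs, 0 of 7 differed 1.5-fold with IL-17A in either pair. Within it, Traf3ip2, which encodes the receptor adaptor Act1, gave 651, 855, 645 and 846, or 1.31-fold higher with IL-17A in both pairs. The subunit genes Rela and Rel had log2 ratios of −0.11 and 0.07 without FGF2 and of 0.05 and 0.05 with it.

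Relatives of the 10 genes had smaller log2 ratios than Zc3h12a and Nfkbiz. The IkB list had 6 measured genes with medians of 0.32 and 0.26. Of its 3 genes outside the set, Nfkbid (88.9, 119, 71.9 and 108, under the floor on 2 arrays) was at least 1.32-fold higher with IL-17A without FGF2, and Nfkbib and Nfkbie had log2 ratios of 0.23 and −0.14. Of 9 measured ubiquitin-editing genes and A20 partners 0 passed 2-fold and Tnfaip3 alone 1.5-fold with IL-17A, with medians of −0.01 and −0.08. Over all measured genes 1.44% and 1.83% were at least 1.5-fold higher in these pairs. The Tnip1 relative Tnip2 gave 148, 147, 170 and 151. Among 18 measured mRNA decay and stability genes, Zc3h12a was the only 1 at least 2-fold higher with IL-17A. That cut was passed by 0.375% and 0.367% of measured genes in the pairs, and the list medians were −0.02 and 0.05. The tristetraprolin relatives Zfp36l1 and Zfp36l2 had log2 ratios of −0.01 and −0.18 without FGF2 and −0.04 and −0.22 with it, and the Zc3h12a relative Zc3h12c 0.21 and 0.04. Arid5a, which encodes a protein known to protect Il6 mRNA from Regnase-1, gave 294, 441, 308 and 320, highest on the IL-17A array. Its log2 ratio of 0.58 for IL-17A without FGF2 was inside the 99th percentile of 0.62. The joint term of −0.53 was inside 0.88, the 99th percentile for joint terms at this signal. Xrn1, the main cytoplasmic exonuclease for decapped mRNA, gave 207, 171, 175 and 92.9, the last close to the floor of 89.8. On the combined array Xrn1 was 2.23-fold lower than on the untreated one. Against the IL-17A and FGF2 arrays it was 1.85-fold and 1.88-fold lower there. These differences all rest on that 1 array and on dim signals, where the yardstick can be too small.

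Of the early response and survival list, Sod2, which encodes the mitochondrial superoxide dismutase, gave 3582, 5415, 3571 and 5934. It was 1.51-fold and 1.66-fold higher with IL-17A in these pairs, with a log2 ratio of −0.0042 for FGF2 alone. Birc3, an inhibitor of apoptosis, gave 2468, 2968, 2392 and 3053. The immediate early genes Ier2 and Ier5 did not pass 1.5-fold with IL-17A in either pair. Traf3ip2, Arid5a, Sod2, Birc3, Icam1 and Vcam1 were picked for mention after their values were seen.

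**Figure D5:**
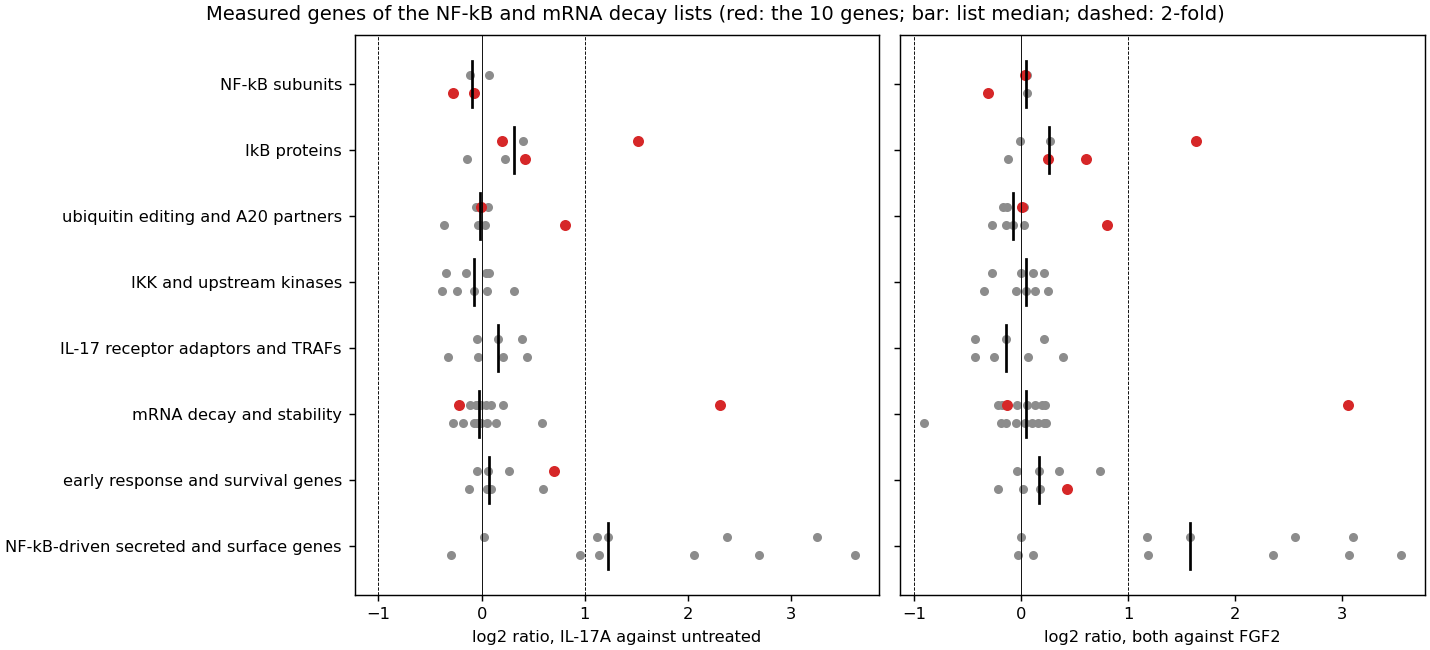
Log2 ratios for IL-17A without FGF2 (left) and with FGF2 (right) of the 72 measured genes of 8 lists (rows, genes offset vertically for legibility). The 10 genes are red, others grey, black bars are list medians and dashed lines mark 2-fold. Most lists centre near 0, and the secreted and surface list has medians of 1.22 and 1.58.

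For the 3 genes at least 2-fold different in any comparison, the 5 measured genes with the most similar pattern over the 4 arrays were taken by the root mean square (RMS) difference of centred log2 signals. Next to Zc3h12a came Sprr2d (RMS 0.13), Sprr2f (0.24), Lcn2 (0.28), Prl2a1 (0.28) and Sprr2h (0.30). Sprr2d gave 79.6, 417, 90.5 and 587 in the array order used above, also highest on the combined one. Its untreated signal was under the floor of 89.8 and its FGF2 signal close to it, so the floor partly set its RMS. Next to Nfkbiz came Plet1 (0.03), Clca3a2 (0.06), Noxo1 (0.12), Ccl7 (0.15) and Muc1 (0.24). Plet1 gave 2413, 6783, 2315 and 6827, high on both IL-17A arrays. The genes most like Ier3 were Ttc39c (0.04), Prg4 (0.06), Ppbp (0.07), Serpinb2 (0.09) and Arg1 (0.10). Ttc39c gave 167, 271, 329 and 469, in the same order of arrays as Ier3. With 4 arrays such likeness rests on 3 differences per gene.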

How the data were processed

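RNA of 4 samples, 1 per group, was hybridised to 1 array each after labelling from the 3′ end, per the labels' protocols. The deposited values are log2 signals that the authors made with MAS5 (version not given in the sources used here), per the submitters' processing notes. MAS5 is known to correct with mismatch probes and to scale whole arrays. The antilog signals have a 2% trimmed mean of 500.0 on every array. Exact 0s numbered 153 to 224 per array. No detection calls were used. Of 45101 probe sets, 64 controls were left out, and 34945 had 1 symbol, 932 several and 9160 none (neither used). The annotation's Entrez identifiers of the 10 genes matched the GRCm38.p6 RefSeq table, which gave gene positions and, with its promoter windows, the sequences. Each gene was represented by its probe set of highest average log2 value, signals under the median of all (89.8, log2 6.49) were raised to it, and folds from there are lower bounds. Calls are folds of 2 or more. The number of arrays limits the precision.

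The text names the 10 genes, listed relatives and genes at least 2-fold different in 8 pathway lists, and the 5 genes nearest in pattern. Members, lists and rules were chosen with earlier results of these data known. Alternatives were 2 scalings, 3 floors, 2 choices of probe sets, folds of 1.5 and 3, and the mean over both pairs. Calculations (Python 3.11.15, numpy 2.4.6, pandas 2.3.3, scipy 1.17.1) were tested on simulated data.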

Additional observations from a re-analysis of the deposited data

How the results depend on the processing

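No paired analysis was possible because each group is 1 array. The number of the 10 genes at least 2-fold higher with IL-17A was 2 in either pair and 1 in either when all probe sets of a gene were averaged. A 1.5-fold threshold gave 4 for IL-17A against untreated, 4 for both factors against FGF2 and 2 for both against IL-17A (main value 0). A 3-fold threshold gave 1 for IL-17A against untreated, 0 for FGF2 against untreated and 1 for both against untreated (main values 2, 1 and 3). The other counts at least 2-fold higher or lower stayed within 1.5 times, and the median log2 ratio of the 10 genes and of their joint term moved by less than the mean yardstick SD, under the alternatives run. Of 440 ratios and joint terms of single genes recomputed, 402 moved by less than the yardstick SD, and 26, none of them at least 2-fold, took another sign or became 0 (Nfkb2 for IL-17A against untreated went from −0.28 to 0.17 on averaging probe sets). The remaining 38 moved further, 17 of them with the mean of all probe sets. Centring arrays on their medians shifted the median of all measured genes by 0.11 for both factors against IL-17A. Signals near the floor, as of Zc3h12a probe set 1443993_at and Tnfaip3 probe set 1450829_at, limit what their ratios show.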
